A study of Homo sapiens with 12 samples.

Results

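The comparison described here is the control that the study built into its image-guided isolation of cells: invasive cells that were photoconverted against invasive cells that were not. The 3 photoconverted arrays and the 3 non-photoconverted arrays were taken by their labels, and they are 6 of the 12 arrays of the series. The other 6 arrays hold leader and follower cells. All genes with a probeset of 1 symbol in the platform annotation were compared, with the brightest such probeset standing for each gene, which gave 14884 genes. All 4 groups came from H1299, a line of human non-small cell lung cancer grown from a lymph node metastasis, stably transfected with Dendra2 carrying a palmitoylation tag that anchors it in the plasma membrane. The cells invaded Matrigel from spheroids, were freed with dispase, sorted on their fluorescence and amplified with a protocol meant for 1 to 20 cells. The photoconverted cells were red after exposure to a violet laser, whereas the non-photoconverted cells stayed green. Leader and follower cells had also been photoconverted, so the non-photoconverted group is the only one of the 4 whose cells were not chosen for conversion. Where in the invading population the invasive cells were picked, and whether green cells came from dishes with converted neighbours, is not stated in the labels or methods.

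Dendra2 is a green fluorescent protein in which violet light breaks the backbone beside the chromophore, which extends the chromophore's conjugated system and turns it red, a change that cannot be reversed. The same light is absorbed by flavins and porphyrins in cells and can yield reactive oxygen, and heat shock proteins, antioxidant enzymes of the NRF2 pathway, immediate-early transcription factors and repair enzymes are the classical responders to such stress. H1299 cells lack the p53 protein, so the p53 branch of a DNA damage response is not available to them. The question of the comparison is whether conversion and the steps that go with it are visible in the transcripts, since genes that differed here were to be left out of the leader and follower comparison.

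Values are log2 intensities, and differences are photoconverted minus non-photoconverted, so that 1 unit is a doubling of the signal. Over the 14884 genes, the standard deviation of an array's values was 0.72, 0.85 and 0.78 for the photoconverted replicates 1 to 3 and 0.79, 1.01 and 0.80 for the non-photoconverted ones. Non-photoconverted replicate 2 thus had the widest spread, and counts, medians and named genes that depend on it are given below without it. It held 332 genes above a log2 value of 6, against 157 and 163 on the other non-photoconverted arrays and 103, 186 and 143 on the photoconverted ones. The group means of 144 and 217 were not separated in a two-sided exact permutation test (p = 0.4, where 3 arrays against 3 cannot go below 0.1). Of the genes in the top quartile of level, 30.1% had their highest value of the 6 arrays on non-photoconverted replicate 2. With so few cells, the state of the cells in a reaction and the amount of RNA in it cannot be told apart as sources of such a spread.

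**Figure D1:**
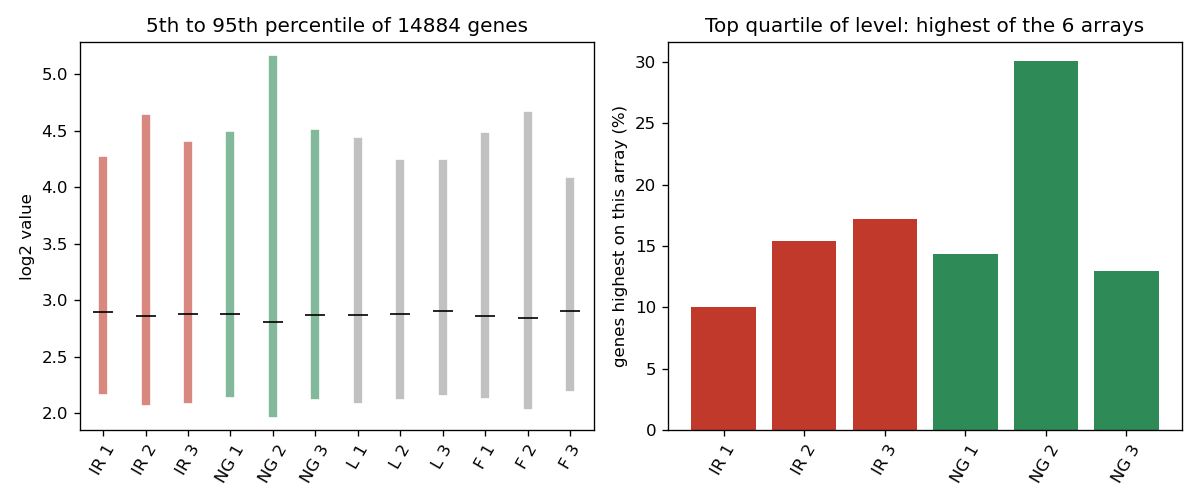
Left, the 5th to 95th percentile (bars) and median (black marks) of the log2 values of 14884 genes on each of the 12 arrays (IR photoconverted, NG non-photoconverted, L leader, F follower). Right, the percentage of top-quartile genes that were highest on each of the 6 invasive arrays, where NG 2 reaches 30.1% and the other 5 lie between 10.1% and 17.2%.

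Array for array, photoconverted cells were about as far from non-photoconverted cells as cells of 1 group were from each other. The median absolute difference between 2 arrays was 0.27 to 0.31 within the photoconverted group and 0.29 to 0.35 within the non-photoconverted group. Between the groups it was 0.27 to 0.36, and without non-photoconverted replicate 2 it was 0.27 to 0.30. The averaged difference of a gene had a median size of 0.18 and a 95th percentile of 0.79, and 82 genes were higher and 327 lower by at least 1 unit in photoconverted cells. These counts were 142 higher and 239 lower without non-photoconverted replicate 2. Leader and follower cells, for scale, differed by a median of 0.18 and by at least 1 unit in 106 and 173 genes.

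In limma, fitted on all 12 arrays, 0 of 14884 genes (0.0%) passed the Benjamini-Hochberg adjusted threshold of 0.05. Without adjustment 724 genes had a p under 0.05, which is 4.86% of those tested. These were 276 genes higher in photoconverted cells (1.85%) and 448 lower (3.01%), a split that became 188 higher and 529 lower when each array was centred on the median of all its probesets. Without non-photoconverted replicate 2 there were 277 higher (1.86%) and 424 lower (2.85%). The 3 photoconverted values lay wholly above or below the 3 non-photoconverted ones for 1451 genes (9.75%), 759 above (5.1%) and 692 below (4.65%). If the groups did not differ, a share of about 0.1 of genes would separate in this way. About 0.05 would have an unadjusted p under 0.05, so both counts are near these shares. A smaller group of 176 genes (1.18%), 48 higher (0.322%) and 128 lower (0.86%), kept an unadjusted p under 0.05 in the fit with all arrays and in each of the 6 fits that left out 1 invasive array. These fits share most of their arrays and are not independent. No source states that the reactions came from separate cultures, so a p-value here covers no more than the spread among these arrays, which may be technical.

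The width of the intervals varied with level. The 95% interval of the difference lay within 1 unit of 0, that is within a doubling or halving, for 71.2% of genes. In the lowest quartile of level it did so for 89.2%, in the highest for 38.5%, and among the 99 genes with a mean above 6 for 18.2%. The lowest quartile had means of 1.51 to 2.64, below the median of every array. Narrow intervals there bear on weak signal and need not exclude a change of the transcript. For most well-expressed genes, therefore, a change of 1 unit was neither detected nor excluded by its interval.

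**Figure D2:**
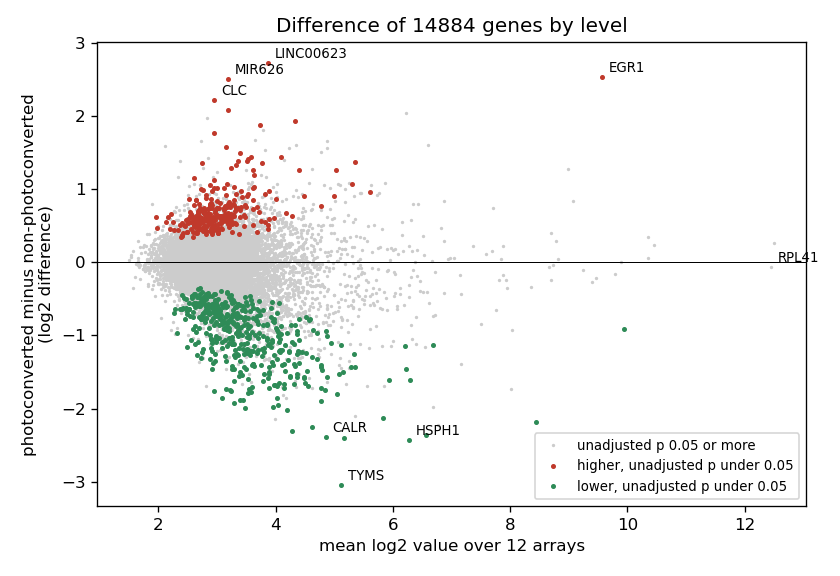
Log2 difference between photoconverted and non-photoconverted cells for 14884 genes (y axis) against the mean log2 value over 12 arrays (x axis). Coloured points have an unadjusted p under 0.05 in limma, 276 higher in red and 448 lower in green. None passed the adjusted test, and the lower genes reach further right than the higher ones.

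The genes at an unadjusted p under 0.05 were not spread evenly over the range of levels. In the lowest quartile 47 were higher and 32 lower, whereas in the highest quartile 77 were higher and 259 lower. Without non-photoconverted replicate 2 the lowest quartile turned to 29 higher and 65 lower, and the highest became 105 higher and 168 lower. The contrast between the quartiles thus rested on that array. The median difference of the highest quartile was -0.07 with it and -3.7e-05 without it.

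The 12 genes with the smallest p on the lower side are described first. DHX40, a DEAH box RNA helicase, read 3.56, 3.61 and 3.91 in photoconverted cells and 5.01, 5.46 and 5.25 in non-photoconverted cells. The groups were apart by over 1 unit, and the difference of -1.55 (SE 0.25) had the smallest p of all genes, but its adjusted p in limma was 0.54. XRN2, the exonuclease that degrades RNA from its 5′ end behind RNA polymerase II, read 3.21, 2.95 and 2.57 against 3.95, 4.39 and 4.67, a difference of -1.43 (SE 0.28). Genes of the ubiquitin system were ANKIB1, a RING-between-RING ligase, at -1.64, and GID8, a subunit of the CTLH ubiquitin ligase, at -1.27. SCAMP2, a secretory carrier membrane protein, differed by -1.05 and MOB1A, an activator of the LATS kinases of the Hippo pathway, by -1.23.

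TYMS, the thymidylate synthase that supplies dTMP for DNA replication, had the largest difference among these genes. It read 3.78, 3.98 and 3.61 in photoconverted cells and 7.65, 7.04 and 5.80 in non-photoconverted cells. The difference was -3.04 (SE 0.65), and -2.94 without non-photoconverted replicate 2, with an adjusted p in limma of 0.61. TYMS spanned 3.99 to 6.67 on the leader and follower arrays, so that the highest of these arrays also exceeded the lowest non-photoconverted one. MYOF, or myoferlin, a ferlin of membrane repair, read 4.08, 4.45 and 3.94 against 5.24, 5.02 and 5.14, a difference of -0.98. The remaining 4 lower genes were CCDC82 (-1.73), NKAPD1 (-1.92), QSER1 (-1.25) and DEPDC1B (-1.29).

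The 12 genes with the smallest p on the higher side had smaller differences, and 9 of them differed by about 1 unit or less. Their signals were weak, with means over the 12 arrays of 2.76 (TMEM116) to 3.63 (ZNF30), where array medians were 2.81 to 2.91. CLC, the galectin that forms Charcot-Leyden crystals in eosinophils, read 2.97, 4.97 and 4.93 in photoconverted cells and 1.90, 2.06 and 2.23 in non-photoconverted cells. Replicate 1 stood about 2 units below the other photoconverted arrays but above all non-photoconverted ones, and the difference was 2.22 (SE 0.44, adjusted p in limma 0.60). The non-photoconverted values of CLC were near the 5th percentile of those arrays, which was 2.18, 2.01 and 2.16. PAK1IP1, a nucleolar protein that binds and inhibits the kinase PAK1, read 4.24, 4.53 and 4.53 against 2.97, 3.27 and 2.82. Its groups were apart by nearly 1 unit, and the difference of 1.41 (SE 0.30) was 1.54 without non-photoconverted replicate 2.

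The zinc finger genes ZNF547 (1.49), ZNF30 (1.03) and ZNF554 (0.64) stood among the same 12. Of the others, BST1, a surface enzyme of myeloid and stromal cells, differed by 0.78, and FCN1, the ficolin of monocytes that starts the lectin pathway of complement, by 0.83. TRMT11, a subunit of a tRNA methyltransferase, differed by 0.72 and TEDC1, a centriole protein, by 0.65. The rest were LRCH3 (0.76), TMEM116 (0.69) and SAE1P1 (0.76), a pseudogene whose probes may also read its parent gene. The cells were a transfected line sorted on Dendra2 fluorescence. Of 4 leukocyte markers listed, 2 were measured, CD68 and CD14, and the groups overlapped for both. CD68 read 4.58, 4.97 and 3.40 in photoconverted cells and 4.12, 4.01 and 3.63 in non-photoconverted cells. CD14 read 2.65, 2.64 and 3.59 against 2.76, 2.65 and 2.65. The part of leukocytes in the values of CLC, BST1 and FCN1 was not tested.

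**Figure D3:**
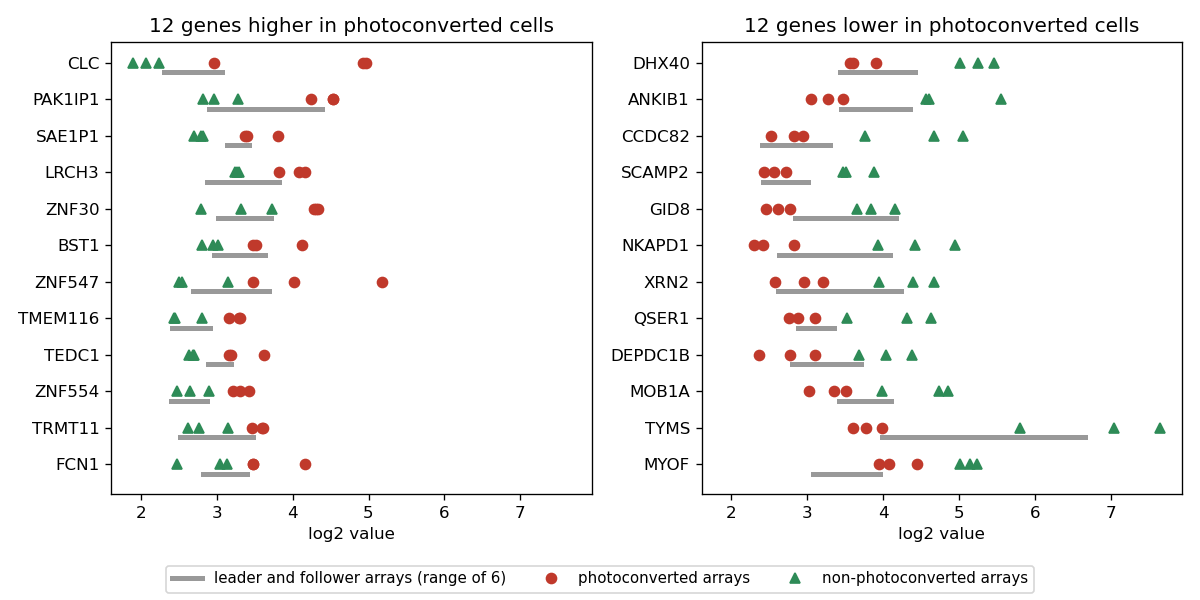
Log2 values of the 12 genes with the smallest p higher (left) and lower (right) in photoconverted cells. Circles are the 3 photoconverted arrays, triangles the 3 non-photoconverted arrays and grey bars the range of the 6 leader and follower arrays. The groups do not overlap for any of the 24 genes, which the choice by p favours, and TYMS shows the widest gap.

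Of the 176 genes that kept an unadjusted p under 0.05 in all 7 fits, the 6 with the largest lower values were TYMS, CMC2, CALR, UBE2G1, GUF1 and SEH1L. CMC2, a factor of cytochrome c oxidase assembly, read 4.57, 4.18 and 3.85 against 6.66, 5.82 and 7.31, a difference of -2.40 (SE 0.58). GUF1, a mitochondrial GTPase of translation, differed by -2.25 and SEH1L, a nucleoporin, by -2.01. UBE2G1, a ubiquitin-conjugating enzyme, stood out for its even values, with 3.05, 2.72 and 2.96 in photoconverted cells and 5.20, 5.20 and 5.24 in non-photoconverted cells.

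Its difference was -2.31 with an SE of 0.64 in the fit of 4 groups. In limma on the 6 invasive arrays alone the SE was 0.17 and the adjusted p 0.0406, which made UBE2G1 the single gene past the threshold there. On the leader and follower arrays UBE2G1 ranged from 2.83 to 6.16, wider than in both invasive groups together.

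Some genes stood high on photoconverted replicates 2 and 3 and not on replicate 1. LINC00623, a long noncoding RNA, read 3.28, 6.15 and 7.62 in photoconverted cells and 2.76, 2.96 and 3.18 in non-photoconverted cells. MIR626 read 1.93, 6.16 and 7.97 against 3.14, 2.30 and 3.10. MGA, a MAX-binding repressor in whose RefSeq span MIR626 lies, read 2.93, 4.79 and 5.68 against 3.15, 3.10 and 3.29. Photoconverted replicate 1 was near or below the non-photoconverted values for all 3 of them.

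In the fit with all arrays the differences were 2.72 for LINC00623, 2.50 for MIR626 and 1.29 for MGA, with adjusted p in limma of 0.90, 0.998 and 0.98. Without photoconverted replicate 1 these became 3.92, 4.22 and 2.06, with adjusted p of 0.0113, 0.0188 and 0.0347, and CLC reached 2.88 with an adjusted p of 0.00302. These were the 4 genes past the threshold in that fit. Since MIR626 and MGA overlap, their values may come from 1 transcript and are not independent.

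MicroRNA genes leaned towards higher values in photoconverted cells. The array reads the gene or precursor, not the mature molecule of about 22 bases that silences messenger RNAs through its seed. Of 1072 miRNA genes, 700 were higher and 372 lower, with a median of 0.11, whereas the median of all genes was 0.02. At an unadjusted p under 0.05, 27 were higher and 6 lower, that is 2.52% and 0.56% against 1.85% and 3.01% of all genes, and 28 and 17 without non-photoconverted replicate 2. Long noncoding RNAs counted 32 higher and 15 lower among 1398, which became 21 and 20 without that array, and protein-coding genes 209 higher and 414 lower among 11915. The classes differ in level. Within the top quartile of level 258 of 337 miRNA genes and 1212 of 3065 protein-coding genes were higher, whereas in the lowest quartile 307 of 519 and 1459 of 2590 were, which are similar shares.

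Among the higher miRNA genes, MIR3135B read 4.14, 6.54 and 5.27 against 2.96, 3.44 and 3.76, a difference of 1.93 (SE 0.60). MIR4297 read 3.98, 3.96 and 5.18 against 3.01, 3.38 and 2.43, a difference of 1.44 (SE 0.42). MIR346 read 5.82, 5.47 and 6.27 against 4.82, 5.08 and 4.46, a difference of 1.07 (SE 0.33). In each of the 3 genes every photoconverted value exceeded every non-photoconverted one, and adjusted p in limma was 0.90 to 0.92.

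MIR494 and MIR876 followed, with differences of 0.77 and 0.67. The mature sequences of the 5 miRNA genes with the smallest p and of MIR626 are given because they show whether these genes share a target-recognising seed (bases 2 to 8, in capitals; RefSeq, GRCh38.p14).
hsa-miR-4297: uGCCUUCCugucugug
hsa-miR-346: uGUCUGCCcgcaugccugccucu
hsa-miR-3135b: gGCUGGAGcgagugcaguggug
hsa-miR-876-3p: uGGUGGUUuacaaaguaauuca
hsa-miR-876-5p: uGGAUUUCuuugugaaucacca
hsa-miR-494-3p: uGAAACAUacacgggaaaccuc
hsa-miR-494-5p: aGGUUGUCcguguugucuucucu
hsa-miR-626: aGCUGUCUgaaaaugucuu

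The 8 mature sequences had 8 distinct seeds, so these 6 miRNA genes did not form a seed family. On GRCh38.p14, mature miR-4297 lies at chr10:129843349-129843364 and miR-346 at chr10:86264747-86264769, both on the minus strand, and miR-3135b at chr6:32749952-32749973 on the minus strand. miR-626 lies at chr15:41691645-41691663 on the plus strand, inside MGA. Of the 33 miRNA genes at an unadjusted p under 0.05, 31 had a mature sequence in the table.

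Heat shock proteins and their co-chaperones, which refold damaged proteins, were mostly lower in photoconverted cells. Of 55 listed genes 22 were measured, and 18 of these were lower and 4 higher, with a median of -0.44 (-0.37 without non-photoconverted replicate 2) against 0.02 over all genes. At an unadjusted p under 0.05, 4 were lower (18.2%, against 3.01% of all genes and 6.96% of the top quartile of level) and 0 higher (1.85% of all genes), and 0 passed the adjusted test. Without non-photoconverted replicate 2, 3 were lower at that p. HSPH1, an HSP110 that serves as exchange factor for HSP70, read 5.94, 4.79 and 3.76 against 8.52, 7.71 and 5.57. Its groups overlapped, and the difference was -2.44 (SE 0.82).

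HSPA1A, the stress-inducible HSP70, read 3.91, 4.09 and 3.52 against 5.20, 4.67 and 4.48, so that all 3 photoconverted values were below. The difference was -0.94 (SE 0.30, adjusted p in limma 0.92). HSPA1A and HSPA1B are near-identical copies that the probes may not separate. HSPA14, a ribosome-bound HSP70, differed by -1.04 and PTGES3, the HSP90 co-chaperone p23, by -0.91. PTGES3 lost its unadjusted p under 0.05 without non-photoconverted replicate 2, at -0.66. The median level of the 22 genes was 3.15, 3.30 and 3.45 in photoconverted cells and 3.94, 3.86 and 3.30 in non-photoconverted cells. Non-photoconverted replicate 3 thus lay among the photoconverted arrays, and 12 of the 22 genes were highest on non-photoconverted replicate 1.

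The promoter of HSPA1A is shown because this gene is a textbook target of heat shock factor 1. It spans chr6:31815293-31815592 on the plus strand (RefSeq, GRCh38.p14), from 250 bases before to 50 after the start, and capitals mark its match to the heat shock element GAANNTTC or TTCNNGAA.
HSPA1A: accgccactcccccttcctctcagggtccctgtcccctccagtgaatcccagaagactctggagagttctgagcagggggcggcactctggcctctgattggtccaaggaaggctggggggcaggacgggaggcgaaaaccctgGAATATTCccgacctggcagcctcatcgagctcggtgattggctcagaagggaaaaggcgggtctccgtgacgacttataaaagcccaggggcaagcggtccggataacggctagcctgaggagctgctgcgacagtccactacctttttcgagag

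Such a match was in 13 of the 20 measured list members with a promoter in the table and in 13.5% of all 35116 promoters. Of the 13 members, 10 were lower in photoconverted cells, beside 18 of all 22 measured genes of the list. Both letter patterns are palindromes, so 1 strand serves for both.

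Genes of the unfolded protein and integrated stress responses, which answer to misfolded protein in the endoplasmic reticulum, were also mostly lower. Of 43 listed genes 23 were measured, 18 lower and 5 higher, with a median of -0.22 (-0.26 without non-photoconverted replicate 2). At an unadjusted p under 0.05, 3 of the 23 were lower (against 3.01% of all genes) and 0 higher. CALR, or calreticulin, a calcium-binding chaperone of glycoproteins, read 3.05, 5.06 and 4.79 in photoconverted cells and 6.34, 6.88 and 6.83 in non-photoconverted cells. All 3 photoconverted values were lower by over 1 unit, and the difference was -2.38 (SE 0.51, adjusted p in limma 0.61).

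SEL1L, the adaptor of the HRD1 ligase that clears misfolded proteins, differed by -1.06, and DDIT4, an inhibitor of mTORC1, by -0.56. ATF4, the transcription factor of the integrated stress response, read 4.81, 4.93 and 4.19 against 6.08, 5.54 and 4.90, with overlap and a difference of -0.86 (unadjusted p 0.0584). The CALR promoter at chr19:12938359-12938658, plus strand, is given because it holds the element through which ATF6 acts, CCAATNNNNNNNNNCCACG, here on the opposite strand and in capitals.
CALR: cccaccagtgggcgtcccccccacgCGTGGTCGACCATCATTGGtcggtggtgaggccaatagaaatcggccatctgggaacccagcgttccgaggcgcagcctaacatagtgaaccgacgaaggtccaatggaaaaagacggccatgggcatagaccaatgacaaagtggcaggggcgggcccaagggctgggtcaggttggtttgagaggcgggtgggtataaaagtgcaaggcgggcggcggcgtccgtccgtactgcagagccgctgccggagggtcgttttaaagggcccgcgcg

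The element, searched on both strands, was in 27 of 35116 promoters (0.0769%) and in 4 of the 22 measured members with a promoter, CALR, CANX, CRELD2 and XBP1. All 4 were lower in photoconverted cells, beside 18 of all 23 measured genes of the list. A match describes the letters in this window and not whether a factor was bound.

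Immediate-early genes, which are transcribed within minutes of a stimulus, were split. Of 44 listed genes 31 were measured, 19 higher and 12 lower, with a median of 0.10. At an unadjusted p under 0.05, 1 was higher and 1 lower (3 and 1 without non-photoconverted replicate 2). Each is 3.23% of the list, against 1.85% higher and 3.01% lower of all genes. EGR1, a zinc finger transcription factor, read 8.99, 11.28 and 10.71 in photoconverted cells and 5.53, 8.57 and 9.29 in non-photoconverted cells. The lowest photoconverted array was below the highest non-photoconverted one, and the difference was 2.53 (SE 1.02, adjusted p in limma 0.98). EGR1 was the only one of the 99 genes with a mean above 6 that was higher at an unadjusted p under 0.05. Its difference fell to 1.39 without non-photoconverted replicate 1. Leaving out single invasive arrays took its unadjusted p in limma as high as 0.149. On the leader and follower arrays EGR1 ranged from 6.85 to 11.59.

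ATF3, another stress-induced factor of this list, went the other way, with 2.91, 2.62 and 2.63 against 3.37, 3.08 and 3.72 and a difference of -0.67 (SE 0.27). JUN, a subunit of AP-1, differed by 0.87 (unadjusted p 0.0551).

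The lists closest to oxidation by light are those of the NRF2 pathway, antioxidant enzymes and haem and flavin synthesis. Of the 17 measured genes of the NRF2 pathway 7 were higher and 10 lower (median -0.09), and 1 was lower at an unadjusted p under 0.05, BLVRB, a biliverdin reductase, at -0.51. That is 5.88% of the list against 3.01% of all genes, and without non-photoconverted replicate 2 it was 0 genes. Among 34 antioxidant enzymes 13 were higher and 21 lower (median -0.11, or -0.02 without that array). MSRB2, a mitochondrial reductase of oxidised methionine, read 2.93, 4.53 and 2.77 against 2.10, 2.52 and 2.44, with a difference of 1.06 (SE 0.43) to which replicate 2 contributed most. TXN, or thioredoxin, read 6.59, 7.17 and 4.71 against 7.67, 7.38 and 6.76, a difference of -1.12 (unadjusted p 0.0887).

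For haem and flavin synthesis, 14 genes were measured and 2 were lower at that threshold (14.3% against 3.01% of all genes), or 1 without non-photoconverted replicate 2. One was HMOX2, the constitutive haem oxygenase, with 2.64, 3.03 and 3.05 against 3.64, 3.80 and 3.56 and a difference of -0.76 (SE 0.22). The other was BLVRB, the biliverdin reductase that is also on the NRF2 list. Both lists of DNA damage had 0 of their genes below p 0.05, where 4.86% of all genes were: the p53 response (23 measured, 16 lower, median -0.18, or -0.06 without that array) and excision repair (20 measured, 14 higher, median 0.09). XRCC1, a scaffold of single-strand break repair, went without that array from 0.15 to 0.91 and had an unadjusted p under 0.05. The lists of clock genes and opsins (20 measured, median 0.03, of the opposite sign after centring on all probesets), of apoptosis (24, median -0.08, or 0.01 without that array) and of lipid peroxidation (14, median -0.10, or -0.03) had none either with all arrays, and 1 apoptosis gene was lower at that p without that array.

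Interferon-response genes numbered 30 measured, 19 higher and 11 lower, with a median of 0.05 that turned negative under a filter on level. At an unadjusted p under 0.05, 3 of the 30 were higher (against 1.85% of all genes) and 0 lower, and 4 and 1 without non-photoconverted replicate 2. Photoconverted values lay wholly above for 3 of the 30 genes and wholly below for 2 (5.1% and 4.65% of all genes). ISG20, an antiviral exonuclease, read 3.35, 3.25 and 3.11 against 2.45, 2.83 and 2.21, a difference of 0.74 (SE 0.25). IFIH1, the RNA sensor MDA5, differed by 0.80 (0.76 without that array, when its p was no longer under 0.05) and SAMD9, a restriction factor of poxviruses, by 0.67. These 3 genes had levels between 2.16 and 3.95 on the 6 arrays, in the low range of the array.

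Of 24 targets of NF-kB, 18 were higher (median 0.12). The chemokine CCL20 alone had an unadjusted p under 0.05, at 0.65, and none had without non-photoconverted replicate 2. That 1 gene is 4.17% of the list, against 1.85% of all genes that were higher at that p.

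**Figure D4:**
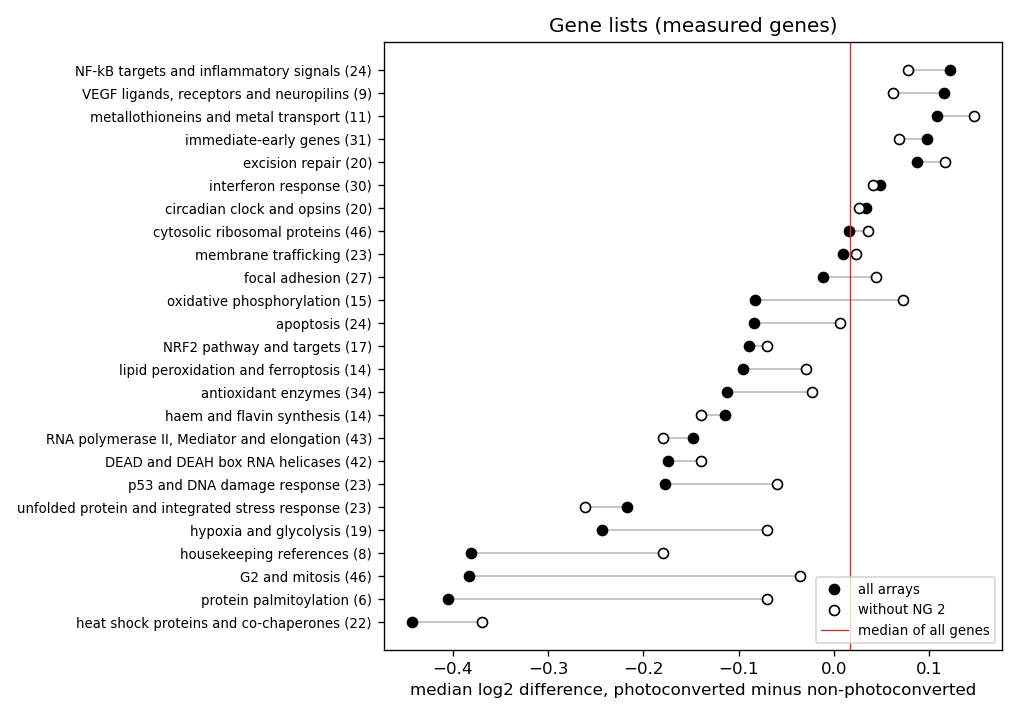
Median log2 difference of the measured genes of 25 lists (x axis), with all arrays (filled circles) and without non-photoconverted replicate 2, NG 2 (open circles); numbers in brackets are measured genes and the red line is the median of all genes. Heat shock proteins lie lowest with all arrays at -0.44, and the median of G2 and mitosis genes moves from -0.38 to -0.04 without NG 2.

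The G2 and mitosis genes give the clearest case of a list carried by 1 array. Of 52 listed genes 46 were measured, 39 lower and 7 higher in photoconverted cells, with a median of -0.38, and 4 were lower at an unadjusted p under 0.05 (8.70% against 3.01% of all genes). Their median level was 3.14, 3.07 and 3.03 in photoconverted cells and 3.003, 4.49 and 3.10 in non-photoconverted cells. Non-photoconverted replicate 2 stood apart from the other 5 arrays and held the highest value for 31 of the 46 genes. Without it, the median was -0.04, and 1 gene was higher and 1 lower at that p.

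TOP2A, the topoisomerase that untangles replicated chromosomes, read 3.55, 2.60 and 2.46 against 3.94, 6.07 and 3.74, a difference of -1.71, or -0.97 without that array. CCNA2, or cyclin A2, went from -1.97 to -1.06 and MKI67, the proliferation antigen Ki-67, from -1.15 to -0.43. TTK, a kinase of the spindle checkpoint, went from -1.62 to -0.69. TYMS, by contrast, was high on all 3 non-photoconverted arrays, and its difference hardly moved.

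Genes of hypoxia and glycolysis counted 14 lower and 5 higher of 19 measured, with a median of -0.24 that moved to -0.07 without non-photoconverted replicate 2. EGLN1, the oxygen-sensing prolyl hydroxylase that marks HIF1A for decay, read 3.15, 4.33 and 2.54 against 5.25, 5.41 and 4.94. The groups were apart, and the difference of -1.86 (SE 0.45) was -1.75 without that array. HK2, a hexokinase, differed by -0.74 and GAPDH, a glycolytic enzyme often used as a reference, by -0.78 (-0.69 without that array, when its p was no longer under 0.05). Among the 8 measured housekeeping references 6 were lower, with a median of -0.38 (-0.18 without that array), so references leaned the same way as the lists above.

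**Figure D5:**
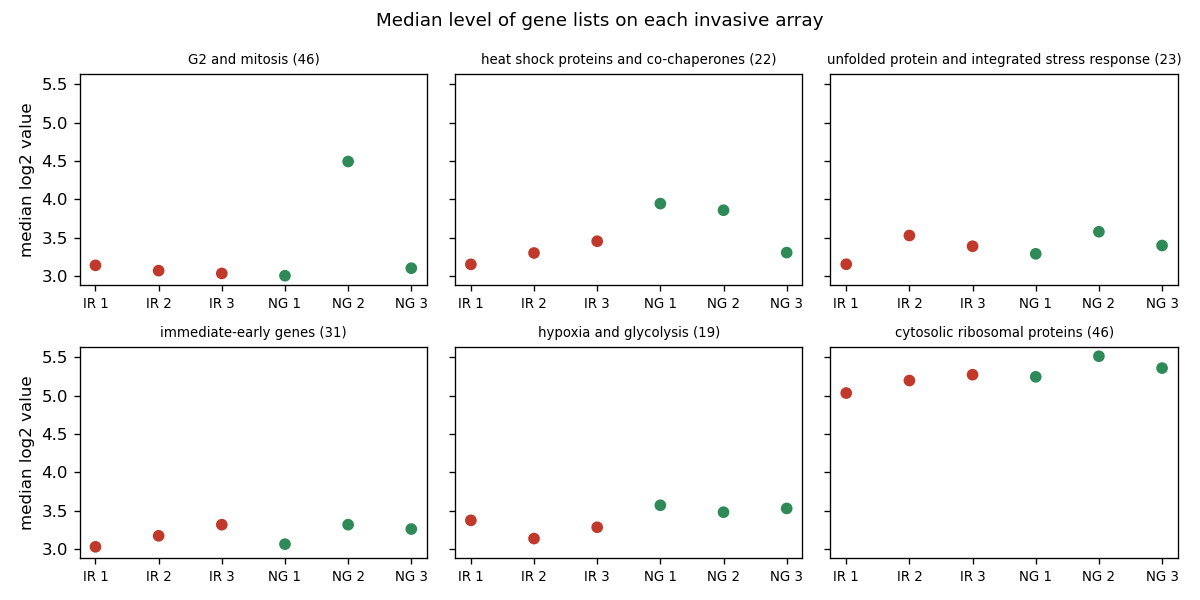
Median log2 value of 6 gene lists on each photoconverted (IR, red) and non-photoconverted (NG, green) array, with the number of measured genes in brackets. G2 and mitosis genes stand out on NG 2 alone (4.49, with the other 5 arrays at 3.003 to 3.14), whereas heat shock genes are higher on NG 1 and NG 2 than on NG 3.

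The 10 genes with the highest mean level were not uniform. They held EGR1 and PTGES3, given above, whereas the other 8 differed by -0.21 to 0.34, with no unadjusted p under 0.05. Among these, RPL19 and TMSB10 had 95% intervals of -1.07 to 1.54 and -1.20 to 1.20, which allow a doubling. GAGE12C, a cancer-testis antigen with near-identical copies, read 12.65, 12.54 and 12.57 against 12.41, 12.01 and 12.54, a difference of 0.27 (SE 0.17), or 0.11 without non-photoconverted replicate 2. RPL41, a ribosomal protein, differed by -0.06 with a 95% interval of -0.60 to 0.47. MALAT1, a nuclear long noncoding RNA, differed by 0.34 with an interval of -0.08 to 0.76. VIM, the mesenchymal filament that H1299 cells express, read 5.26, 6.70 and 6.84 against 6.20, 7.35 and 6.49, and EPCAM, an epithelial surface marker, stayed between 1.96 and 2.66 on all 6 arrays.

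Of the 99 genes with a mean above 6, 40 were higher and 59 lower in photoconverted cells, and 8 were lower at an unadjusted p under 0.05. These 8 are 8.08% of the 99, against 3.01% of all genes and 6.96% of the top quartile of level. TCEAL9 differed by -1.13 (SE 0.28), COX7C, a subunit of cytochrome c oxidase, by -1.15 and LAPTM4A, a lysosomal membrane protein, by -2.36. Others were FBL, the methyltransferase fibrillarin, at -1.46 and the RNA-binding proteins STRAP at -2.19 and HNRNPH3 at -1.61. HSPH1 and PTGES3 made up the 8. Without non-photoconverted replicate 2, 4 of the 99 were lower at that p.

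For the VEGF genes of the study's leader and follower results, no difference between the groups was detected here. VEGFA, the growth factor of vessel sprouting, read 3.49, 3.25 and 3.93 against 2.93, 3.25 and 3.50, a difference of 0.33 with a 95% interval of -0.29 to 0.95. Its receptor FLT1 differed by 0.25 (-0.08 to 0.57), KDR by -0.14 (-0.78 to 0.50) and the co-receptor NRP1 by 0.06 (-0.31 to 0.43). KDR was at -0.38 and NRP1 at -0.02 without non-photoconverted replicate 2. These intervals lie within 1 unit of 0, so a doubling of the signal is outside them. Leader and follower means were 4.06 and 3.13 for VEGFA and 2.65 and 2.24 for FLT1. They were 2.98 and 2.68 for KDR and 3.10 and 2.69 for NRP1. Each of these leader and follower differences lies inside the interval above for that gene. FLT1 read 2.67, 2.54 and 2.55 in photoconverted cells and 2.30, 2.22 and 2.49 in non-photoconverted cells, without overlap. FLT1, KDR and NRP1 were weak, at percentiles 10.7, 31.7 and 46.2 of level. Their intervals bear on that weak signal and need not exclude a doubling of the transcript. Of the 9 measured ligands, receptors and neuropilins 8 were higher, with a median of 0.12, and none had an unadjusted p under 0.05.

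In the focal adhesion list 13 of 27 measured genes were higher and none passed that p. PTK2, the focal adhesion kinase, differed by -0.26 with an interval of -1.11 to 0.59, which allows a halving, and was at 0.07 without non-photoconverted replicate 2. VCL, or vinculin, read 2.98, 3.27 and 2.61 against 3.57, 3.54 and 3.66. Its groups did not overlap, and the difference was -0.64 with a 95% interval of -1.42 to 0.14. VCL passed the unadjusted threshold by a t-test and not in limma.

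The RNA polymerase II list, with Mediator and elongation factors, had 28 of 43 measured genes lower and a median of -0.15. MED4, a Mediator subunit, read 3.05, 3.50 and 3.002 against 3.89, 4.24 and 5.59, a difference of -1.39 (SE 0.42). CDK7, the kinase of TFIIH, differed by -1.22 (-0.72 without non-photoconverted replicate 2, when its p was no longer under 0.05) and the Mediator subunit MED22 by 0.62. These were the 3 genes of the list at an unadjusted p under 0.05. Of the list 2.33% were thus higher and 4.65% lower, against 1.85% and 3.01% of all genes.

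Genes that differed in this control were to be excluded from the other comparison, and the test used for that step is not named in the methods. The controls also entered the study's permutation test of leaders against followers, where those differences were set against the absolute differences between the controls. That permutation test was not run here. The t-test that the methods name for other data, run on the 6 arrays, put 686 genes (4.61%) under an unadjusted p of 0.05, 345 higher and 341 lower, and 0 after Benjamini-Hochberg adjustment, with a smallest adjusted p of 0.300. This t-test shared 313 genes with limma's 724, which is 45.6% of the t-test list and 43.2% of limma's. Genes on the t-test list differed by a median of 0.48 and those on limma's by 0.76, and 363 of the 686 differed by under 0.5 against 91 of the 724. Leaving out 1 invasive array kept 47.4% to 53.6% of the t-test list and 52.2% to 64.5% of limma's.

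Leader and follower cells were photoconverted too, so their mean can be placed beside both invasive groups. The same invasive arrays that chose the genes measure these distances, which are therefore a description, made after the values were seen. Over all genes, the mean of the 6 leader and follower arrays was nearer to the photoconverted mean for 54.5%. It was nearer for 361 of the 448 genes that were lower in photoconverted cells (80.6%, and 73.9% without non-photoconverted replicate 2) and for 106 of the 276 that were higher (38.4%). For 11 of the 12 lower genes with the smallest p the leader and follower mean lay nearer to the photoconverted arrays, and for 1 of the 12 higher ones.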

How the data were processed

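The authors hybridised labelled cDNA, amplified from the RNA of 12 samples, 3 in each of 4 groups, to Affymetrix Human Gene 2.0 ST arrays and deposited log2 values, adjusted for GC content, background corrected with RMA, quantile normalized between arrays with probes summarized by their mean. RMA and Partek 6.6 are named in the submitters' processing notes. The genome build used is not given in these sources. The number of arrays, 3 a group, limits the precision.

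The table held 53617 probesets. Of these 16098 had 1 gene symbol in the platform annotation, which can be old. The other 37519 had no single symbol there and were not used, so many listed genes were not measured. Each of 14884 symbols was represented by its brightest probeset, by mean over the 12 arrays, of which 779 had several probesets and 570 of those agreed in sign.

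The 4 groups were fitted together in limma 3.58.1 (R 4.3.3; lmFit and eBayes), with Benjamini-Hochberg adjustment over all genes and a threshold of 0.05. The t-test that the methods give for the study's other data was run on the 6 invasive arrays with scipy 1.17.1, since no test is named for leaving out genes that differed in this control. Array-level values were compared with exact permutation tests. The fit was tested on simulated data. Sequences are from RefSeq tables.

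The genes named were the 12 per direction with the smallest p, the 6 per direction with the largest difference among genes with an unadjusted p under 0.05 in all 7 fits, the 10 with the highest mean, up to 4 per list, genes of the study's networks, and genes past the threshold in any alternative. A few, among them MIR346, MIR876, MIR494 and the genes with a mean above 6, were chosen after their values were seen. The comparison, the 30 gene lists and the rules were chosen with earlier results of these data known. Alternatives were other scaling, filters, probeset rules, limma settings, a replicate block and leaving out each array.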

Additional observations from a re-analysis of the deposited data

How the results depend on the processing

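With limma, 0 genes passed the adjusted test under each alternative but 2: 1 gene with only the 6 invasive arrays (UBE2G1), and 4 without photoconverted replicate 1, so that the count ranged from 0 to 4 when single arrays were left out. Genes higher at an unadjusted p under 0.05 (276) were 125 under a filter on level and 1162 over all probesets, and 216 to 365 without single arrays. Genes lower (448) were 915 over all probesets and 330 to 597 without single arrays. The t-test (686) gave 395 and 1849 and 597 to 840 in the same order, and groups did not overlap for 821 and 4453 genes (1451), or for 2728 to 3221 with 1 array fewer, when separation is easier. The share of intervals within 1 unit of 0 (71.2%) was 61.9% to 64.9% without single arrays.

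The share of higher genes among those at an unadjusted p under 0.05 was 38.1%, 31.5% after median centring, 39.6% after cyclic loess, 26.2% after centring on all probesets (an alternative chosen after seeing the data) and 55.9% over all probesets. It was 49.0% without photoconverted replicate 1, 49.3% without photoconverted replicate 3 and 27.7% without non-photoconverted replicate 3. The replicate numbers of the labels were not taken to pair the samples, since the deviations of same-numbered arrays correlated by 0.0854, 0.17 and 0.0419, although each photoconverted array correlated best with its own number. With the number as a replicate block, 297 genes were higher, 507 lower and 0 passed the adjusted test.

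The difference of GAGE12C was -0.063 as the mean of its probesets, and that of TMSB10 was -0.020 after median centring, -0.043 after centring on all probesets and -0.031 with array weights. Without single arrays that of RPL41 ranged from -0.17 to 0.10, of NRP1 from -0.022 to 0.15, of KDR from -0.38 to 0.027 of RPL19 from -0.32 to 0.65, of TMSB10 from -0.53 to 0.51, of XRCC1 from -0.25 to 0.91 and of PTK2 from -0.55 to 0.11, each with both signs. The cause was not tested. List medians changed sign for ribosomal proteins and membrane trafficking after median centring, for clock genes and opsins after centring on all probesets and for oxidative phosphorylation after cyclic loess. Those of interferon, haem and flavin, focal adhesion and clock genes did so under the filter on level, and those of NRF2 and apoptosis when single arrays were left out. The medians of the heat shock, unfolded protein, and G2 and mitosis lists stayed below 0 in every alternative run.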

Other observations

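Some lists not described above concern RNA helicases, ribosomes and organelles. Of 42 measured DEAD and DEAH box helicases 32 were lower in photoconverted cells, with a median of -0.17 (-0.14 without non-photoconverted replicate 2). Besides DHX40, 1 of them had an unadjusted p under 0.05. This is 2.38% of the list in each direction, against 1.85% higher and 3.01% lower of all genes. DDX10, a nucleolar helicase, read 3.04, 2.66 and 3.31 against 2.44, 2.31 and 2.14. Its difference was 0.71 (SE 0.26), in the opposite direction to most of its list. Cytosolic ribosomal proteins were evenly split, 25 higher and 21 lower of 46, with a median of 0.02 that turned negative after median centring. At an unadjusted p under 0.05, RPS15A differed by -1.15 and RPS24 by -0.77, and no ribosomal protein was higher. The 2 lower genes are 4.35% of the list, against 3.01% of all genes.

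Of 15 measured genes of oxidative phosphorylation 9 were lower. COX7C and the cytochrome c1 gene CYC1 (-0.78) had an unadjusted p under 0.05, of which COX7C alone kept it without non-photoconverted replicate 2. These 2 genes are 13.3% of the list, against 3.01% of all genes and 6.96% of the top quartile of level. The list's median was -0.08 with all arrays and 0.07 without non-photoconverted replicate 2, and it was above 0 after cyclic loess. In membrane trafficking, 12 of 23 genes were higher, and SNX6, a sorting nexin of the retromer, was lower with 4.18, 3.61 and 3.84 against 4.77, 4.91 and 4.93, a difference of -0.99 (SE 0.25). Of 6 measured genes of protein palmitoylation, the modification that anchors the Dendra2 construct, 5 were lower and none had an unadjusted p under 0.05. The median of -0.40 was -0.07 without non-photoconverted replicate 2, on which 5 of the 6 genes were highest. Among 11 metallothioneins and metal transporters 7 were higher, and MT1H differed by 0.52 (SE 0.23), or 0.35 without non-photoconverted replicate 2. The translation factor EEF2, a reference gene, differed by -0.52 (SE 0.20).

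Of the other marker lists, 3 genes of lung epithelium, 2 of endothelium and 2 of fibroblasts were measured, with medians of 0.10 (-0.01 without non-photoconverted replicate 2), 0.18 and 0.20 and 0 genes at an unadjusted p under 0.05.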
